A study of Mus musculus with 24 samples.

Results

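The passage of mouse embryonic stem cells that lack MLL3 from the naive to the formative state of pluripotency was described across every gene of the expression table. The cells are the MLL3KO_MLL4fl line, called the floxed line here. It carries a knockout of MLL3 and a floxed MLL4 in both states, so that by their labels the 2 groups differ in culture and not in genotype. The members are 6 of the 24 samples, 3 naive and 3 formative, compared over 16617 genes by the means of log2 CPM, where CPM is the count of a gene scaled to the same total in every library. Naive cells are labelled Naive_ESC, and formative cells were collected 63 h after withdrawal of LIF2i (the cytokine LIF and 2 kinase inhibitors). The other samples are the wild type (the R1 line), the line without both proteins (MLL3KO_MLL4KO, the knockout line) and MLL3CD_MLL4CD (CD read here as catalytic-dead), each with 3 naive and 3 formative samples. The labels name no parent line for the floxed cells, and each genotype is a line of its own, so genotype and line cannot be told apart. Replicates were grown and prepared separately, per the design text of the series, but the labels do not say whether they came from separate clones.

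Naive embryonic stem cells resemble the epiblast of the blastocyst before implantation, and are held there by LIF, which acts through STAT3, and by inhibition of the ERK and GSK3 kinases. When these are withdrawn, the cells shut off a circuit of naive transcription factors, take up FGF and ERK signalling, methylate their DNA again and reach a formative state from which germ layers can be made. MLL3 and MLL4, the products of Kmt2c and Kmt2d, are paralogous methyltransferases that place a methyl group on lysine 4 of histone H3 at enhancers, so MLL4 is the remaining paralogue in the cells described here.

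The deposited table holds group means. Library counts were recovered from them by arithmetic for most scarce genes. The highest naive mean of a tested gene was 37.4 CPM, and 90% of tested genes lay under 17 CPM. Some genes below these levels were not solved either, such as Grhl2 (2.96 and 11.8 CPM) and Setdb1 (25.2 and 25.6 CPM). Genes without library counts are given by their deposited means alone, as not tested. The naive floxed libraries a, b and c held 10734725, 10403184 and 6619593 counts, and the formative ones 13095346, 11809585 and 10717398. Naive library b stood somewhat apart, with 910 of 4971 genes of at least 5 CPM (18.3%) more than 0.5 log2 from the group mean, against 599 and 264 in naive a and c and 164 to 262 of 4542 in the formative libraries. The sum of naive markers was 2243 CPM before and 496 CPM after the transition, with all 7 at least 2-fold lower, and that of formative markers 152 and 1465 CPM, with all 6 at least 2-fold higher. Of 7 fibroblast markers, Col3a1, Lum and Postn were not in the table, and the other 4 summed to 1.95 and 18.1 CPM. Of 5 primitive endoderm markers, Pdgfra, Sox17 and Sox7 were not in the table, and the other 2 summed to 0.824 and 1.05 CPM. Trophoblast markers, with Elf5 not in the table, summed to 4.99 and 6.44 CPM. For blood and endothelium, Cdh5 and Ptprc were not in the table, and nearly all of the 134 and 34.7 CPM was Pecam1, which stem cells also express. The tags of Kmt2c (naive 23.2 CPM, formative 19 CPM) and Kmt2d (28.6 and 25.3 CPM) come from the end of the transcript and do not test the alleles. Neither passed the test across the transition (differences of -0.28 and -0.18 log2, adjusted p = 0.488 and 0.488). In bulk RNA, a smaller share of cells that express a gene and less RNA per cell cannot be told apart.

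Of 10792 tested genes, 2364 rose (21.9%) and 1163 fell (10.8%) by limma with a Benjamini-Hochberg adjusted p under 0.05, and only such genes are said to rise or fall. The rising genes were mostly scarce in naive cells, with a median of 1.21 CPM that went to 5.54 CPM, while the falling genes went from a median of 9.40 to 3.14 CPM. Of those that rose 1943 did so at least 2-fold and 904 at least 4-fold, and of those that fell 808 and 272. The median difference was 1.73 log2 among rising and -1.43 among falling genes, beside 0.13 over all 16617 genes. All formative libraries lay above all naive ones for 2198 of the rising genes, beside 26.1% of all tested genes, and below them for 1075 of the falling ones, beside 14.3%. The calls came from the same library values, so separation of libraries in genes named below is description only. No naive library held a count for 167 genes, of which 91 rose, and no formative library held one for 53, of which 9 fell. Among the 5825 genes without a test, 513 lay higher and 403 lower by 2-fold or more in their means.

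Genes of different kinds took unequal parts. Protein-coding genes rose in 2034 of 7899 cases (25.8%) and fell in 939 (11.9%), whereas of 485 tested lincRNAs, long RNAs that encode no protein, 68 rose and 75 fell. Processed pseudogenes, copies of spliced transcripts whose reads can belong to the parent gene, rose in 56 and fell in 15 of 748 cases. With scaling by size factors in place of library totals the median over all genes went from 0.13 to 0.02, a shift of 0.12 log2 that applies to every difference below.

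**Figure D1:**
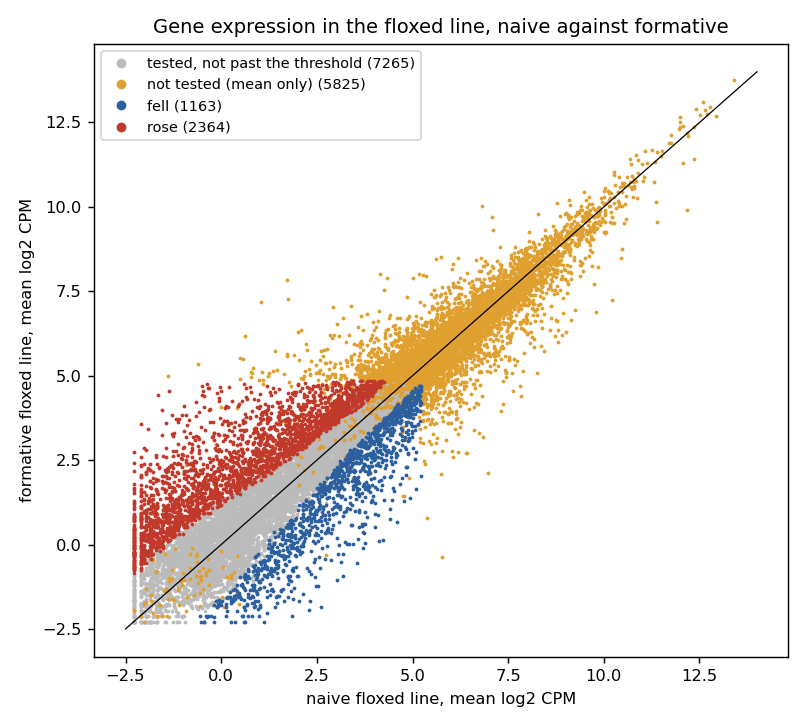
Each point is a gene, with its mean log2 CPM in naive floxed cells on the x axis and in formative floxed cells on the y axis, coloured by whether it rose, fell, did not pass the test or was not tested. Genes that rose lie above the diagonal, mostly at low naive levels, and untested genes fill the abundant end of both axes.

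The largest rises, among genes with at least 5 CPM in a group and a symbol that is no predicted model, went from near silence to moderate levels. Mir670hg, the host transcript of a microRNA (chromosome 2, 94160636 to 94264918, minus strand, GRCm38), had 0.373, 0 and 0.302 CPM in naive libraries a, b and c and 22.9, 25.7 and 21.4 CPM in the formative ones, a fitted difference of 5.91 log2 (SE 0.44, adjusted p = 1.01e-10). No library of either state came near the other. Rem2, a small GTPase that acts on calcium channels, had 1 naive count in all and 10.5, 11.6 and 13.1 CPM in the formative libraries, a ratio of 323 (95% counting interval 57.6 to 12772, for counting error only). Mgst1, a glutathione transferase of membranes, went from 0.186, 0.288 and 0 to 11.2, 17.4 and 19.4 CPM (5.54 log2). Trim67, a ubiquitin ligase of the nervous system, went from 0.373, 0.769 and 0.604 to 27.6, 23.2 and 29.6 CPM (5.13 log2). These formative values lay close together, within a log2 SD of 0.18 for Trim67 and 0.41 for Mgst1. Pcdh1, an adhesion protocadherin, rose by 5.10 log2, Syt13, a synaptotagmin of vesicles, by 5.04, Ppp4r4, a regulatory subunit of phosphatase 4, by 4.98 and Fndc3c1 by 5.07. Ccdc194 had no count in the naive libraries and 5.8, 6.35 and 7.28 CPM in the formative ones, at least 59.5-fold higher against a floor of 3 counts over the group. Dcn, which encodes decorin, a proteoglycan of connective tissue, and the growth factor Fgf8 are also among the 12 largest and are described with their groups below.

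The largest falls by the same rule went from low or moderate naive levels to lower ones. Klk11, a secreted serine protease (chromosome 7, 43774604 to 43779263, plus strand), had 4.56, 8.36 and 5.29 CPM in naive and 0.153, 0 and 0.0933 CPM in formative libraries. Its 171 naive counts fell to 3, a ratio of 73.2 (24.6 to 358). Trpm1, an ion channel of the retina and melanocytes (chromosome 7, 64153835 to 64269775, plus strand), fell from 21.5, 15.7 and 18.7 to 1.15, 0.847 and 0.746 CPM, by 4.08 log2 (SE 0.36, adjusted p = 1.79e-09). Cabp4, a calcium-binding protein of photoreceptors, fell by 4.12 log2 and Sgk2, a kinase related to AKT, by 4.11. Enox1, an oxidase of the cell surface, stood at 34.5, 12.3 and 32.5 CPM in naive and 0.84, 2.46 and 1.21 CPM in formative libraries and fell by 3.94. The homeobox gene Vax2 fell by 3.79, the intracellular serpin gene Serpinb9b by 3.74, the kinase gene Dclk3 by 3.70 and the nicotinic receptor subunit gene Chrna9 by 3.70. Krt42, a keratin, Gpa33, a surface antigen of gut epithelium, and Tgm1, the transglutaminase of keratinocytes, fell by 3.65, 3.50 and 3.50. All 12 had every formative library below every naive one, beside 14.3% of all tested genes. They were chosen from these same values, so this separation adds no support.

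**Figure D2:**
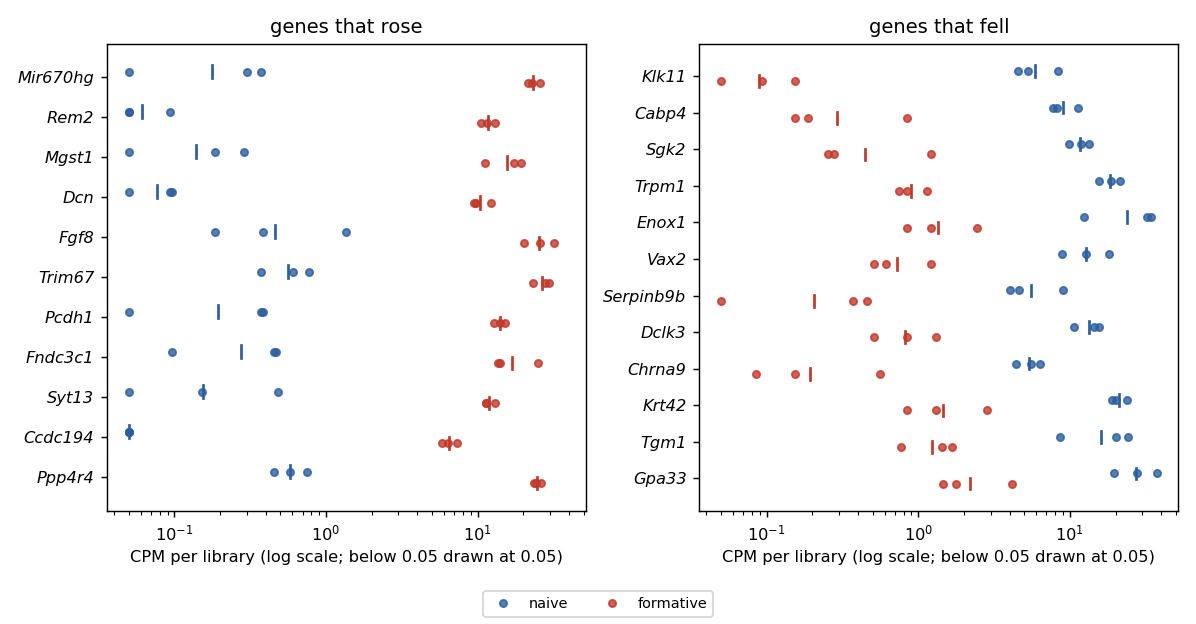
CPM of single libraries (x axis, logarithmic, values below 0.05 drawn at 0.05) for 11 of the 12 genes with the largest rises (left) and the 12 with the largest falls (right), 1 row a gene, with naive libraries in blue, formative libraries in red and short bars at their geometric means. In each row the 3 naive points and the 3 formative points do not overlap.

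Differences of similar or larger size were seen among genes for which only means exist. Cthrc1, a secreted protein with a collagen repeat, had means of 0.174 CPM (naive) and 31.3 CPM (formative), a difference of 6.38 log2. Car4, a carbonic anhydrase anchored in the membrane, stood at 1.85 and 145 CPM, and Enpp2, the secreted enzyme autotaxin, which makes lysophosphatidic acid, at 3.08 and 226 CPM. Mal2, a protein of vesicle transport, was higher by 5.96, Cnn1, a calponin of smooth muscle, by 5.55, Sema3e, a semaphorin, by 5.03 and Mapk12, a p38 kinase, by 4.93. At the other end, Obox6, an oocyte homeobox gene with close copies in the genome, stood at 54.2 and 0.568 CPM and is uncertain for that reason. Myo1f, a myosin, was lower (-3.72 log2), as were Ddx58, the RNA sensor RIG-I (-3.68), Mymx, a fusion peptide of myoblasts (-3.65), and Ubd, a ubiquitin-like modifier (-3.46). Accsl (-3.45), Arl14epl (-3.44) and Ooep, a component of the maternal complex of the egg (-3.42), were also lower. The deposited means give no measure of spread, so none of these differences carries a test.

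The naive circuit went down nearly as a whole. Of 20 naive pluripotency factors 17 were at least 2-fold lower, beside 8.82% of all genes. Of the 4 tested 3 fell and 1 rose, beside 10.8% and 21.9% of all tested genes. Esrrb, an orphan nuclear receptor, had means of 307 CPM (naive) and 33.8 CPM (formative), Klf2, a Kruppel-like factor, 449 and 63.2 CPM, and Nr0b1, a nuclear receptor without a DNA-binding domain, 26.8 and 2.48 CPM. Mras, a small GTPase, stood at 163 and 17.5 CPM and Tdh, the threonine dehydrogenase that feeds one-carbon metabolism in naive cells, at 1197 and 151 CPM. Nanog was lower by less (-1.32 log2, 437 and 175 CPM). Prdm14, a repressor of differentiation, had 14.6, 17.6 and 15.7 CPM in the naive and 1.6, 2.29 and 2.61 CPM in the formative libraries and fell by 2.79 (SE 0.34, adjusted p = 2.27e-07). Gbx2, a homeobox gene of the naive state and later of the hindbrain, fell from 17.9, 11.2 and 15.9 to 1.99, 3.13 and 3.17 CPM. The exceptions were Zscan10 (-0.50), Spic, an ETS factor that fell by 0.92, and Dppa3, a maternal factor that guards against loss of methylation, which rose from 8.04 to 12.6 CPM, a call lost without formative library a (adjusted p = 0.0531), formative library b (adjusted p = 0.0583) or naive library b (adjusted p = 0.158). For Spic the fall was a call lost without formative library c (adjusted p = 0.0985) or naive library a (adjusted p = 0.0712).

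Factors shared by both states moved less and in both directions. Of 18, 3 were higher by 2-fold or more, beside 17.4% of all genes, and 3 lower, beside 8.82%. Their median was -0.27. Lin28b and Lin28a, RNA-binding proteins that block the maturation of let-7, were higher (2.38 and 1.14 log2), and Sox2, Dppa2 and Dppa4 were lower (-1.53, -1.42 and -1.27). The Pou5f1 row stood at 9.15 and 7.27 CPM, a level that near-identical pseudogenes make uncertain.

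The formative programme came up, with exceptions among its ETS and forkhead members. Of 21 formative factors 16 were at least 2-fold higher, beside 17.4% of all genes. Of the 7 tested 4 rose and 3 fell, beside 21.9% and 10.8% of all tested genes. Pou3f1, a POU factor of the epiblast, had means of 17.5 CPM (naive) and 257 CPM (formative), Otx2, a homeobox factor that redirects OCT4 to new enhancers, 8.02 and 91.6 CPM and the kinase Pim2 10.2 and 134 CPM. Fgf5, the growth factor of the epiblast, had 1.02, 0.865 and 0.453 CPM in the naive and 21.2, 20.4 and 18.8 CPM in the formative libraries, 4.41 log2 higher (SE 0.40, adjusted p = 9.31e-09). Lef1, a nuclear partner of beta-catenin, had 2.42, 1.06 and 2.42 and 8.78, 6.27 and 11.3 CPM (2.09 log2). Both states of Fgf5 and Lef1 were separate in every library. Etv1, an ETS factor downstream of ERK, fell by 0.86, the forkhead gene Foxd3 stood at 29.9 and 18.4 CPM (a fall that was a call lost without formative library a (adjusted p = 0.0751), formative library c (adjusted p = 0.071), naive library a (adjusted p = 0.16) or naive library c (adjusted p = 0.11)), Etv4 stood at 77.6 and 39.5 CPM, and Nkx1-2, a homeobox gene of the caudal epiblast, fell from 20.2, 13.3 and 12.8 to 2.98, 1.95 and 2.05 CPM.

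**Figure D3:**
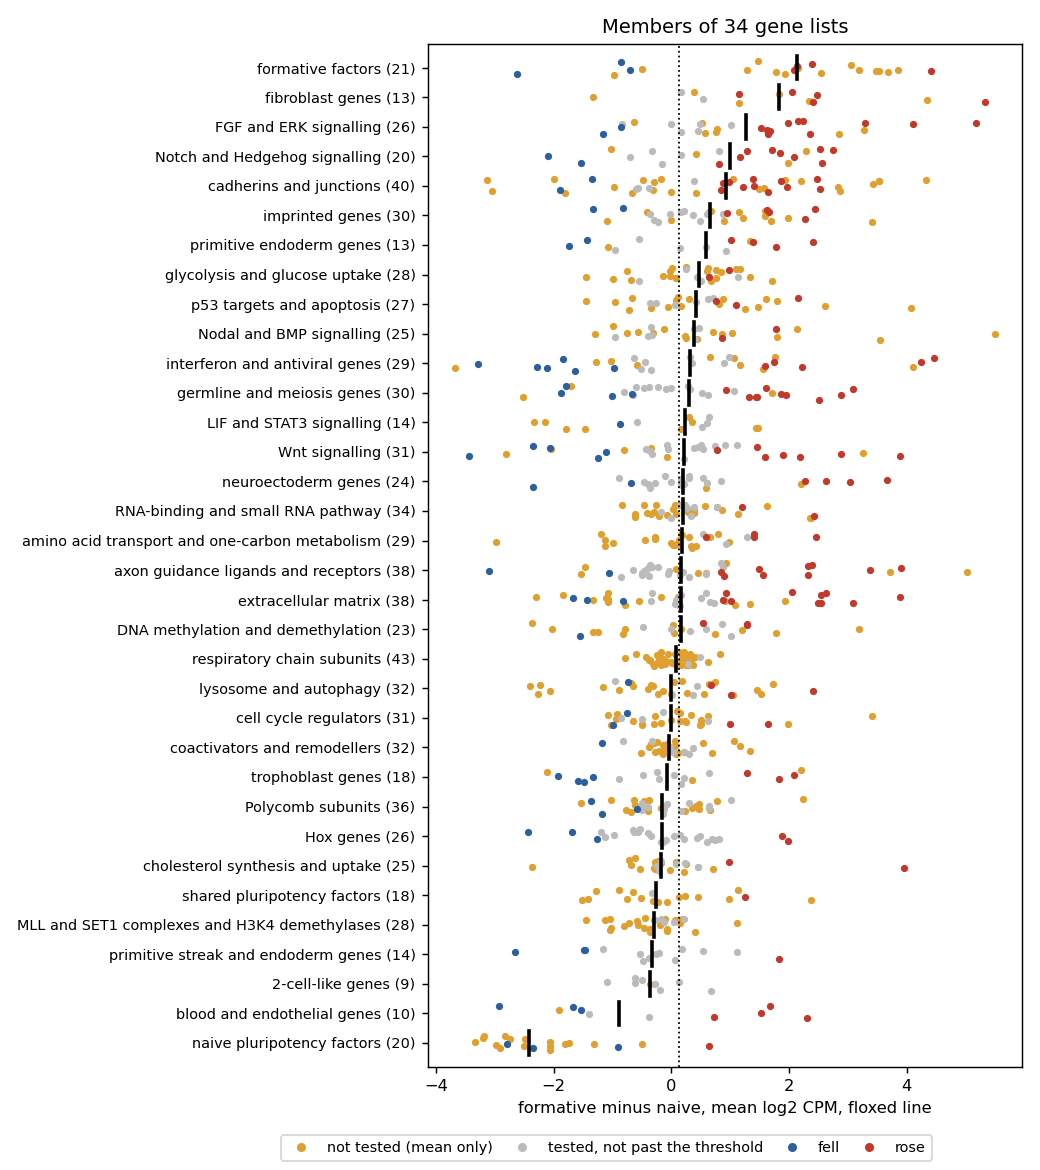
For each gene list (y axis) the log2 difference of formative minus naive floxed means (x axis) of its members, as points, with the median of the list. The naive pluripotency factors lie to the left, with a median of -2.43, and the formative factors to the right, with a median of 2.14, beside 0.13 over all genes.

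Of 26 genes of FGF and ERK signalling, ligands, receptors and early targets, 19 were tested, of which 11 rose and 2 fell (1 without naive library a), beside 21.9% and 10.8% of all tested genes, and the median over the 26 was 1.26 log2. Fgf8, a ligand of the gastrulating embryo, went from 0.186, 0.385 and 1.36 to 25.7, 20.2 and 32.1 CPM and Fgf15, a ligand of the fibroblast growth factor 19 branch, from 2.42, 1.92 and 2.42 to 13.5, 8.13 and 11.2 CPM. Both rose, by 5.18 and 2.16 log2, and every formative library lay above every naive one. The receptor genes Fgfr3 and Fgfr2 rose by 2.35 and 1.52, and Fgfbp1, a carrier that frees FGF from the matrix, by 2.24. Dusp4 and Dusp5, phosphatases that switch ERK off and are themselves ERK targets, rose by 3.29 and 1.98, and Dusp6 was higher without a test (19 and 185 CPM). Spry1, a feedback inhibitor, rose by 1.64, while the ligand gene Fgf17 fell by 1.16. The AP-1 gene Junb fell by 0.86, a call lost without naive library a (adjusted p = 0.0962), and the rise of Myc (1.63) was a call lost without formative library b (adjusted p = 0.228), naive library b (adjusted p = 0.429) or naive library c (adjusted p = 0.0552). Spry2, another inhibitor, stood lower at 122 and 78.6 CPM.

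Genes of the LIF pathway moved in both directions, with a median of 0.23 beside 0.13 over all genes. Lifr, the LIF receptor, had means of 45.6 CPM (naive) and 13 CPM (formative), Stat3 174 and 34.4 CPM and its feedback target Socs3 36.7 and 8.08 CPM. Il6st, the shared receptor subunit gp130, fell from 28.6, 26.7 and 26.7 to 15.7, 16.7 and 12.5 CPM (by 0.87 log2, adjusted p = 5.83e-04). Pim1 and Socs2, further targets of the pathway, stood higher instead (1.47 and 1.44). The kinases Jak1 and Jak2, which the receptor activates, did not stand lower (0.17 without a test and 0.60, adjusted p = 0.0648). Of 14 genes 5 were tested, of which 1 fell and none rose, beside 10.8% and 21.9% of all tested genes. At an unadjusted p under 0.05 in limma 1 of the 5 was higher. By means 2 of the 14 stood higher by 2-fold or more and 4 lower, beside 17.4% and 8.82% of all genes.

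Nodal and BMP genes changed at a few points. Of 25 genes 9 were tested, of which 2 rose (1 without naive library b or without naive library c). None fell (1 without naive library b, and 1 was lower at an unadjusted p under 0.05 in limma). Among all tested genes 21.9% rose, a share near that of this list, and 10.8% fell. Smad3, a transducer of Nodal, rose from 16.8, 11.8 and 12.8 to 24.2, 24.4 and 26.4 CPM (0.86 log2, adjusted p = 0.00127). Inhba, which encodes the activin A subunit, rose from 5 counts over all naive libraries to 30 (1.77 log2), the call that was lost without naive library b (1.49, adjusted p = 0.0876) or naive library c (adjusted p = 0.0862). Lefty1, a target of Nodal and also its inhibitor, stood at 19.9 and 236 CPM. Lefty2 was lower (-0.76) and Nodal nearly level (91.8 and 83.7 CPM). Of the BMP targets, Id1 was higher (2.13) and Id3 lower (-1.30).

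In the Wnt pathway the ligand genes Wnt4, Wnt3 and Wnt8a rose and Wnt5b, Wnt7b and Wnt11 did not pass. Targets of beta-catenin did not all move alike. Sp5, Axin2, Notum and Cdx1 fell (Cdx1 by 3.44 log2) and Tcf7 rose (0.78). Nkd1, Znrf3, Rnf43, Lgr5, T and Dkk1 did not pass (0.45, 0.39, 0.50, 1.11, 0.54 and -0.07). Of 25 genes tested among 31, 7 rose and 5 fell, beside 21.9% and 10.8% of all tested genes. The list median of 0.21 lay near that of all genes. Wnt4 went from 0.279, 0.0961 and 0.302 to 6.03, 4.66 and 7.65 CPM and Wnt3, a ligand of the gastrulating epiblast, from 1.68, 1.63 and 0.604 to 9.16, 10.8 and 10.8 CPM, and both rose (3.89 and 2.89 log2). Rspo1, a ligand that raises Wnt receptor levels, rose by 1.89 and the receptor gene Fzd7 by 1.46. Fzd2 stood at 7.53 and 73.8 CPM and Fzd5 at 109 and 26.1 CPM, without a test, and Fzd10 fell by 1.25. Among the targets, Sp5 (chromosome 2, 70474923 to 70477729, plus strand), a transcription factor that beta-catenin activates, fell from 8.2, 5.77 and 4.68 to 1.76, 1.1 and 1.12 CPM (by 2.06 log2, SE 0.34, adjusted p = 2.03e-05), Axin2, a scaffold of the destruction complex, from 11.6, 4.61 and 13 to 4.66, 4.83 and 2.8 CPM, a call lost without formative library c (adjusted p = 0.075), naive library a (adjusted p = 0.0629) or naive library c (adjusted p = 0.0797). Notum, which removes the lipid from Wnt, fell by 2.35. Porcn, which attaches that lipid, stood at 39 and 5.39 CPM.

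The promoter of Sp5 is printed because this target fell while some ligand genes rose. It is the RefSeq sequence of GRCm38.p6, chr2:70474773-70474922, plus strand, the 150 bases before the transcription start, with the letters CTTTGAT, which TCF and LEF proteins can bind, in capitals 104 bases upstream.
Sp5 promoter: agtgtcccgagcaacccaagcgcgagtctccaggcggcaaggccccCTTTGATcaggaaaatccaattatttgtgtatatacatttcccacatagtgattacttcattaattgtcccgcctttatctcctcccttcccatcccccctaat
These letters, searched on both strands of the 300 bases around each start, were present in 3.30% of the promoters of genes that fell, 2.10% of those that rose and 2.53% of all promoters matched to the table. A match of letters is a description and not a binding site.

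Of 16 Notch and Hedgehog genes tested among 20, 9 rose and 2 fell (1 without formative library a), beside 21.9% and 10.8% of all tested genes, with a median of 0.99 over the 20. Dll1, a Notch ligand, went from 0.0932, 0.192 and 0 to 0.993, 1.69 and 2.99 CPM, Hes5, a target of Notch, from 0.559, 0.0961 and 0.302 to 1.99, 2.46 and 3.92 CPM, and Lfng, an enzyme that glycosylates Notch, from 0.745, 2.31 and 0.453 to 7.41, 5.08 and 7.18 CPM. In all 3 the naive libraries lay below the formative ones. The ligand genes Jag2 and Dll3 rose by 1.85 and 1.71 log2, and Smo, the transducer of Hedgehog, by 2.09 (2.06 to 9.43 CPM). Of the GLI factors that Smo acts on, Gli3 rose by 1.17 and Gli2 fell by 1.54, and the fall of Gli1 (-2.09) was the call lost without formative library a (-1.73, adjusted p = 0.0519).

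**Figure D4:**
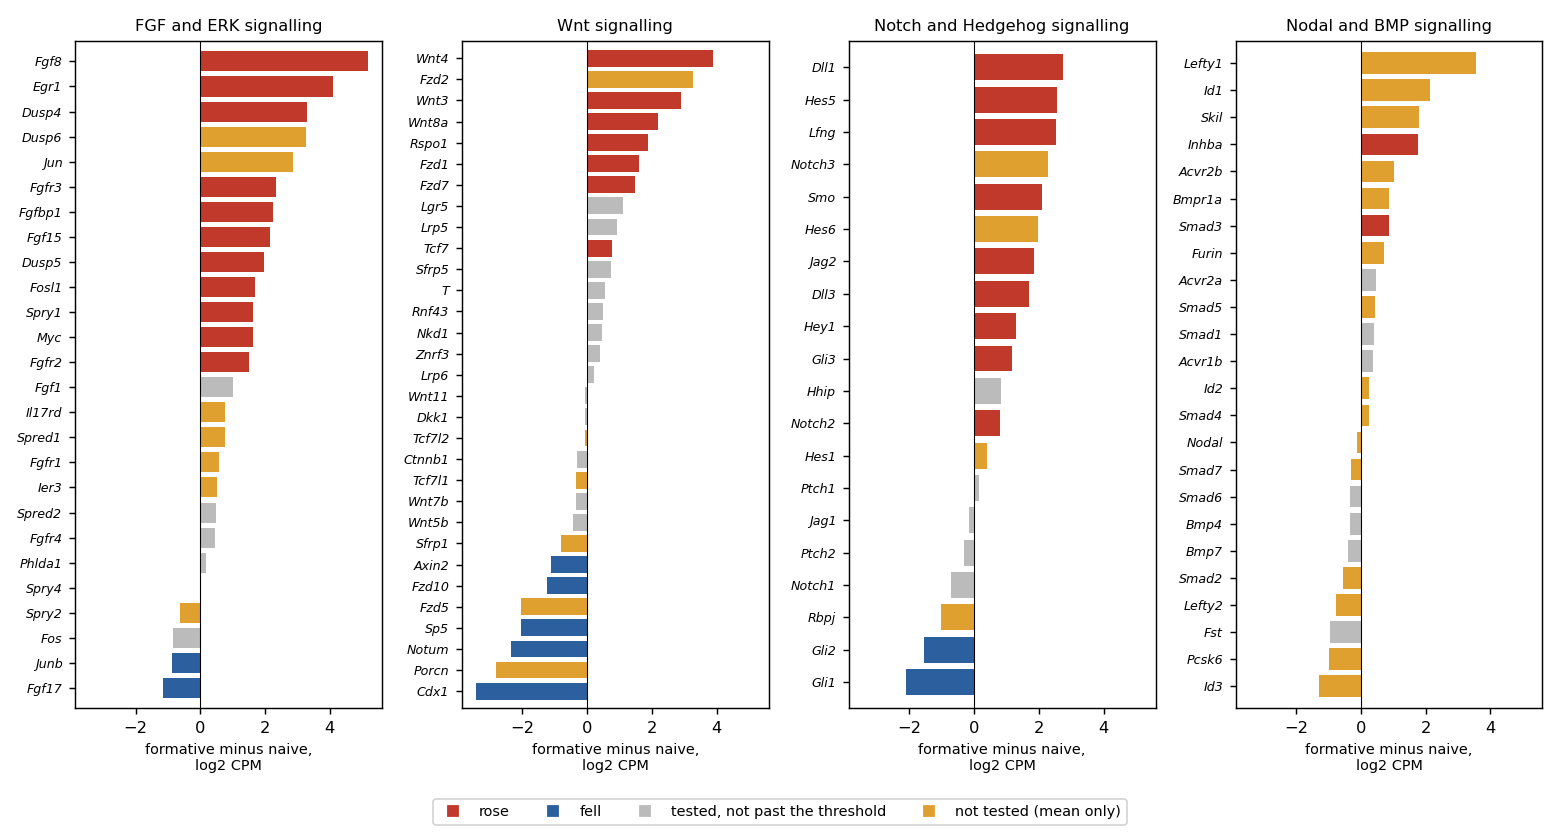
Bars give the log2 difference of formative minus naive floxed means (x axis) for the genes (y axis) of 4 signalling lists, without 1 gene of the Nodal and BMP list, coloured by whether the gene rose, fell, did not pass the test or was not tested. The bars of Fgf8 (5.18), Wnt4 (3.89) and Dll1 (2.74) point to higher formative levels, and those of Sp5 (-2.06) and Gli2 (-1.54) to lower ones.

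Genes of DNA methylation and its removal moved in both directions, mostly without a test. Dnmt3b and Dnmt3a, which methylate DNA anew, had naive means of 113 and 49.2 CPM and formative means of 1041 and 169 CPM. Their cofactor Dnmt3l stood at 864 and 210.3 CPM, Uhrf1, which brings DNMT1 to replicated DNA, at 128 and 50.8 CPM, and Tet2 and Tet1, which oxidise the methyl group, were lower by means (-2.37 and -1.25 log2). Dnmt1, which copies methylation to the new strand, stood lower as well (-0.83), while Uhrf2 and Gadd45b stood higher (0.74 and 1.20), and Tet3 and Tdg, a glycosylase that removes oxidised bases, did not pass (0.86 and 1.01). The difference of Tet3 in the floxed transition passed without formative library c (1.16, adjusted p = 0.0114). Among the 10 tested of 23 genes, 3 rose and 1 fell (2 without naive library b), beside 21.9% and 10.8% of all tested genes. Zfp57, a zinc finger protein that keeps methylation at imprints, fell from 29.7, 10.9 and 25.5 to 7.41, 7.88 and 5.32 CPM (adjusted p = 6.91e-04), and Gadd45a, linked to demethylation and stress, rose from 8.38, 6.82 and 13.1 to 18.4, 25.5 and 24.1 CPM.

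Of 30 imprinted genes, which are expressed from 1 parental copy, 11 were higher by 2-fold or more, beside 17.4% of all genes, and 2 lower, beside 8.82%, with a median of 0.66. Of 17 tested 5 rose and 2 fell, shares near the 21.9% and 10.8% of all tested genes. Cdkn1c, an inhibitor of the cell cycle, stood at 2.91 and 32.9 CPM, Grb10, an adaptor that restrains growth, at 60.8 and 197 CPM and Phlda2 at 36.5 and 145 CPM. Sgce, a sarcoglycan, rose from 1.3, 0.673 and 0.453 to 3.51, 4.83 and 7.28 CPM, Ndn, which encodes necdin, from 2.61, 2.31 and 3.02 to 11.2, 12 and 18.4 CPM and Dlk1, a ligand-like protein of the Notch family, from 1.96, 5.86 and 4.99 to 10.7, 15.8 and 11.9 CPM. The naive and formative libraries were separate for these 3 genes. H19 stood at 21.4 and 47.8 CPM, and Plagl1, a zinc finger factor, fell by 0.82.

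Genes of the germline, many of which are silenced by promoter methylation in the body, held members that rose and members that fell. Of 27 tested among 30, 10 rose and 4 fell, beside 21.9% and 10.8% of all tested genes, and the median was 0.30. The 10 became 6 without formative library a, a share near that of all genes, and 8 without naive library b. Tdrkh, a Tudor protein of the piRNA pathway (chromosome 3, 94413273 to 94434668, plus strand), went from 1.4, 1.15 and 0.604 to 7.1, 13.3 and 10.8 CPM (3.09 log2, SE 0.40, adjusted p = 6.38e-07), and Sycp3, which builds the axis of meiotic chromosomes (chromosome 10, 88459569 to 88473236, plus strand), from 2.05, 1.63 and 3.17 to 13.8, 8.98 and 5.13 CPM (1.87, adjusted p = 0.011), a call lost without formative library a (adjusted p = 0.0512) or naive library b (adjusted p = 0.0549). Sycp2, the partner of Sycp3, rose by 2.88, Tdrd1 and Mael, further piRNA factors, by 2.52 and 1.94, and Slc25a31, the ADP/ATP carrier of sperm, by 1.45. Stra8, the gene that opens meiosis under retinoic acid, went the other way, from 7.55, 6.15 and 4.99 to 1.6, 3.81 and 0.653 CPM, and Dazl, an RNA-binding protein of germ cells, fell by 1.01. Kit, the receptor of primordial germ cells, stood at 41.6 and 12.6 CPM.

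Promoters of 4 germline genes that rose are printed for a feature they share, the E-box CACGTG (a palindrome, so the same on both strands), in capitals. Each is the RefSeq sequence of GRCm38.p6, the 150 bases before the start, 5′ to 3′ on the strand of the gene.
Sycp3, chr10:88459437-88459586, plus strand: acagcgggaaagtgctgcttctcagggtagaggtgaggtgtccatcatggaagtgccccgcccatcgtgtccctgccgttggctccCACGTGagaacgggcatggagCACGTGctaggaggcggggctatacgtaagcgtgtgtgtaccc
Slc25a31, chr3:40708721-40708870, plus strand: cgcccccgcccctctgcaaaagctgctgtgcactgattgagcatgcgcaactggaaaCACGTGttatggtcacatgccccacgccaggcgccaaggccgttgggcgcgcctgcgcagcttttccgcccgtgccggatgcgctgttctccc
Brdt, chr5:107331044-107331193, plus strand: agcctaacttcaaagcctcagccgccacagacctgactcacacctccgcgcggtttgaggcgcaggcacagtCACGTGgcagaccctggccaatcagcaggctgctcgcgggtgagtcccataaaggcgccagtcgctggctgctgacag
Taf7l, chrX:134476491-134476640, minus strand: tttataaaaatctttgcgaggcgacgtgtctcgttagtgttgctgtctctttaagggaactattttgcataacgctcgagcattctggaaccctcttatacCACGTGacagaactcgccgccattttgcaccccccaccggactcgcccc
The E-box lies 64 and 43 bases before the start in Sycp3, 93 in Slc25a31, 78 in Brdt and 49 in Taf7l. Promoters were matched for 27 of the 30 list genes, counting 250 bases before to 50 after the start. The E-box was in 6 of the 10 that rose, in 6 of 13 that neither rose nor fell and in none of the 4 that fell. By promoter it was in 14 of 33 (42.4%), against 9.85% of all promoters matched to the table. The list was drawn from genes known to be germline genes, and the motif is a feature of the list, present also in members that did not rise.

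Of 28 genes of the MLL and SET1 complexes and the matching demethylases 1 stood higher by 2-fold or more and 5 lower. Over all genes 17.4% stood higher and 8.82% lower, and the median of the list was -0.29. Of the methyltransferase genes, Setd1b was among the 5 lower ones (-1.04 log2). Of the 28, 5 were tested, and at an adjusted p under 0.05 in limma none rose and none fell. With all libraries 0 of the 5 passed at an unadjusted p under 0.05 either, but 1 fell without naive library b. Beside the 21.9% risen and 10.8% fallen among all tested genes, 0 of 5 says little. Kdm6a, the demethylase UTX that partners MLL3 and MLL4, stood at 36.1 and 47.7 CPM, and Ncoa6, another subunit of these complexes, at 45.9 and 22.4 CPM. The shared core subunits Rbbp5 (-1.46 log2), Ash2l (-1.12) and Wdr5 (-0.72) were lower, Psip1, a chromatin tether of MLL1, was higher (107 and 231 CPM), and Dpy30 was level (-0.07). Kmt2b stood at 32.3 and 21.4 CPM and Setd1a, a methyltransferase of promoters, at 60.8 and 52.9 CPM.

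Polycomb subunits changed little, with a median of -0.16. Of 36, 16 were tested, of which none rose (3 were higher at an unadjusted p under 0.05 in limma, and 2 rose without naive library a and 1 without naive library c, formative library a or formative library c) and 3 fell (1 without naive library c). Cbx8, a reader of methylated lysine 27, fell from 6.24, 4.42 and 12.4 to 2.67, 4.32 and 2.24 CPM, a call lost without formative library c (adjusted p = 0.0542) or naive library c (adjusted p = 0.102). Epop and Mtf2, accessory subunits of PRC2, were lower by means (-1.53 and -1.03), Yaf2, a subunit of variant PRC1, was higher (2.24), and the enzyme Ezh2 stood at 247 and 217 CPM. Coactivators and remodellers had a median of -0.04, and the remodellers Mta1 and Chd7 stood higher (1.17 and 1.07). Of 26 Hox genes, all tested, 2 rose (1 without naive library a) and 3 fell (1 without formative library a). Among all tested genes 21.9% rose and 10.8% fell. Hoxc13, the most 5′ gene of the Hoxc cluster, fell from 21.4, 19.5 and 24.3 to 4.66, 4.06 and 2.99 CPM, by 2.43 log2 (adjusted p = 5.44e-08).

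Of 40 cadherin and junction genes 17 were tested, of which 11 rose and 2 fell, beside 21.9% and 10.8% of all tested genes. By means 19 of the 40 stood higher by 2-fold or more and 6 lower, beside 17.4% and 8.82% of all genes. Cdh1, which encodes E-cadherin, stood lower at 1188 and 743 CPM. Esrp1, a splicing factor of epithelia, had means of 2.43 CPM (naive) and 52.6 CPM (formative), the polarity gene Crb3 4.49 and 54.2 CPM and the adhesion molecule gene Epcam 36 and 259 CPM. Claudins of tight junctions did not all move alike. Cldn3 rose from 3.35, 1.83 and 3.47 to 19.5, 12.4 and 20.1 CPM, and Cldn6 and Cldn7 were higher by means (3.53 and 3.43 log2), while Cldn4 stood at 128 and 103 CPM. The classical cadherin Cdh3 rose by 1.86, as did Zeb2, a repressor of epithelial genes (by 2.48). Gap junction genes divided, with Gja1 higher (48.4 and 353 CPM) and Gjb5 falling by 1.90.

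Of 23 extracellular matrix genes tested among 38, 10 rose and 3 fell, beside 21.9% and 10.8% of all tested genes. Their median of 0.16 lay near that of all genes. Thbs1, the thrombospondin that releases TGF-beta, went from 0.279, 0.577 and 0.453 to 6.26, 13.7 and 8.77 CPM and Loxl2, which crosslinks collagen, from 0.838, 1.06 and 2.27 to 13.7, 12.7 and 11 CPM. Mmp2, a gelatinase, rose by 2.63 log2, and Col4a5, a collagen of basement membranes without a naive count, was at least 10.1-fold higher. On the falling side, Lama1, the laminin chain of the first basement membrane, fell by 1.44, and Spp1 and Timp1 stood lower (-2.29 and -1.85). Genes of fibroblasts and contractile cells overlapped with this group. Of 13, 7 were tested, of which 5 rose and none fell, also at an unadjusted p under 0.05 in limma. These counts too stand beside 21.9% and 10.8%. Dcn went from 2 counts over all naive libraries to 12.3, 9.4 and 9.8 CPM in the formative ones, a ratio of 147 (40.4 to 1217), Thy1 rose by 2.48, and Tagln and Myl9 stood at 1.5 and 34.4 CPM and 12.1 and 62.5 CPM. Col1a1 did not pass (0.991 and 1.14 CPM). Whether feeder cells or other cells took part in these rises was not tested beyond the markers above.

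Axon guidance genes, which also act in the sorting of early tissues, rose in 9 of 30 tested cases and fell in 2 (4 without naive library b), beside 21.9% and 10.8% of all tested genes, and their median of 0.17 lay near that of all genes. Of the ephrins, which signal between neighbouring cells, Efnb2 went from 1.49, 0.288 and 0.453 to 14.9, 12.6 and 9.52 CPM, Efna1 from 0, 0.961 and 1.06 to 6.49, 5.67 and 8.3 CPM and Efna5 rose by 2.32 log2. The receptor Ephb4, a partner of Efnb2, rose by 1.57, while Ephb3 and Epha4 were lower by means (-1.54 and -1.47). Ntn1, which encodes netrin, fell from 21.9, 9.04 and 20.4 to 1.76, 1.78 and 1.49 CPM, by 3.11 (SE 0.41, adjusted p = 8.97e-07).

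Calls among genes of the germ layers stand beside 21.9% risen and 10.8% fallen among all tested genes. Of 14 genes of the primitive streak and endoderm, all tested, 1 rose (2 without formative library b) and 3 fell, with a median of -0.32. Eomes, a T-box factor of the streak, fell from 14, 10.2 and 15 to 5.04, 3.81 and 4.67 CPM and Evx1, a homeobox gene of the posterior streak, from 2.24, 1.92 and 2.72 to 0.0764, 0.847 and 0 CPM. Brachyury (T) stood at 1.43 and 2.17 CPM and Mixl1 at 2.15 and 1.76 CPM, without passing. Of 22 tested neuroectoderm genes 4 rose and 2 fell (1 without naive library a). Pax6, a regulator of the neural tube and eye, rose from 0.186, 0.192 and 0.151 to 3.97, 5.17 and 4.76 CPM, Ncan, a proteoglycan of neural tissue, by 3.03 log2, and Irx3 by 2.62, and the neural stem cell gene Nes stood at 10.3 and 47.7 CPM. Sox1 was nearly level (10.9 and 13.5 CPM).

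Among extraembryonic genes, Gata4 and Gata6 did not pass (0.298 and 0.754 CPM, 0.526 and 0.295 CPM), and 4 of 11 tested primitive endoderm genes rose (2 without naive library c) and 2 fell (1 without formative library a). Dab2, an endocytic adaptor, rose by 1.77 log2. Counts for the extraembryonic, blood and 2-cell-like lists stand beside 21.9% risen and 10.8% fallen among all tested genes. Of 15 tested trophoblast genes 3 rose, a share near that of all genes, and 4 fell. Krt7, a keratin, rose from 0.373, 0.481 and 0.604 to 3.28, 3.3 and 1.77 CPM, Tead4, a factor of the first trophoblast decision, fell by 1.93, and Tfap2c was lower by means (-2.12), while Cdx2 stayed at 0.311 and 0.164 CPM. In the blood and endothelial list, Kdr, a receptor for VEGF, fell from 3.45, 4.52 and 3.47 to 0.535, 0.0847 and 0.467 CPM, and Lmo2, a partner of blood transcription factors, rose by 2.30. Of 9 tested genes of that list 4 rose and 3 fell, but 2 rose without naive library c, formative library a or formative library c. Of 9 genes of 2-cell-like cells in the table, 8 were tested, all under 0.5 CPM in both means, and none passed in limma (0 also at an unadjusted p under 0.05). The other one, Eif1a, stood at 429 and 333 CPM.

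Innate immune genes moved in both directions. Of 19 tested among 29, 5 rose and 6 fell, beside 21.9% and 10.8% of all tested genes. Among genes of antigen processing, Psmb8, a subunit of the immunoproteasome, had 1 naive count in all and 4.81, 5.42 and 4.57 CPM in the formative libraries, a ratio of 137 (24.3 to 5447), Psmb9, its partner, rose by 2.22 log2, and Tap1, the peptide transporter, went from 2.61, 2.02 and 3.47 to 9.85, 9.06 and 9.24 CPM. B2m and H2-K1, the chains of the class I molecule, stood at 25 and 85.5 CPM and 28.7 and 84.5 CPM, and Bst2, a tether of budding virus, at 7.42 and 132 CPM. Genes of RNA detection differed among themselves. Ddx58 was lower by means (83.8 and 6.36 CPM), Oas1a, an oligoadenylate synthetase, fell from 4.01, 2.11 and 3.17 to 0.153, 0.847 and 0.56 CPM, Oas2 by 2.12, and Irf9, the factor that carries interferon signals to DNA, from 23.7, 29.1 and 26.7 to 6.57, 9.23 and 9.42 CPM. Oasl2 rose by 4.24, and Oas1c, Oas3, Oasl1 and Dhx58 did not pass (0.35, -0.35, -0.52 and 0.32).

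Many metabolic genes were abundant, so that few had a test. Slc16a3, an exporter of lactate, stood at 109.7 CPM (naive) and 361 CPM (formative) and the glucose transporter gene Slc2a1 at 77.1 and 194 CPM, whereas Slc2a3, the more abundant glucose transporter gene, was level (684 and 674 CPM). Pdk1, which closes the way of pyruvate into mitochondria, stood higher (1.17 log2), while Pfkp and Hk2 stood lower (-1.46 and -0.75). The glycolysis list had 2 risen genes of 7 tested, beside 21.9% of all tested genes, and a median of 0.47. The 2 became 0 without naive library a, naive library c or formative library c, and 1 without formative library a. The tested rows include Gapdh (1.98 and 2.88 CPM), Pgk1 (2.71 and 6.19 CPM) and Pgam1 (1.20 and 1.70 CPM). Whether near-identical copies in the genome took reads from these genes was not tested. Respiratory chain subunits stayed level, with none of 43 genes at least 2-fold different, beside 17.4% higher and 8.82% lower over all genes. Their median of 0.07 becomes -0.042 with size factors. Of 25 genes of cholesterol synthesis and uptake 9 were tested and 2 rose, a share near the 21.9% of all tested genes. Dhcr7, the reductase of the last step to cholesterol, rose from 12.3, 11.4 and 9.06 to 26.4, 19.8 and 19.4 CPM, and Ebp, a sterol isomerase, stood at 206 and 39.5 CPM. Slc16a10, a transporter of aromatic amino acids, rose from 1.4, 1.83 and 1.66 to 10.5, 8.04 and 11.4 CPM, and Asns and Shmt1, which make asparagine and one-carbon units, were lower by means (-1.12 and -1.13).

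Some regulators of autophagy and lysosomes stood lower. Tfeb and Mitf, transcription factors of lysosomal genes, stood at 69.9 and 13 CPM and 46.1 and 9.38 CPM, and Ulk1, the kinase that starts autophagy, at 242 and 51.2 CPM. Individual lysosomal genes did not follow as a group. Ctsl was higher by means (1.52 log2), Ctsh, another cathepsin, rose by 2.41, Psap was lower (-1.16), and the median over 32 genes was 0.00 (-0.12 with size factors).

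Cell cycle and cell death genes held a few large changes. Bcl2, the inhibitor of apoptosis, had means of 0.796 CPM (naive) and 16.7 CPM (formative). Of proapoptotic genes, Bik rose, with 3.17, 1.63 and 2.27 CPM in the naive and 10.9, 8.81 and 13.4 CPM in the formative libraries (2.16 log2, adjusted p = 4.78e-06), and Bbc3 and Bcl2l11 were higher by means (1.79 and 1.61). Bid stood lower (-0.67), Bax was slightly higher (0.30) and Bak1 did not pass (-0.37). Of 9 tested genes of the p53 and apoptosis list 3 rose (1 without naive library b) and none fell. At an unadjusted p under 0.05 in limma 0 were lower. All tested genes rose in 21.9% and fell in 10.8% of cases. Rb1, the retinoblastoma gene, rose from 3.17, 3.46 and 3.47 to 15.4, 7.45 and 11.4 CPM and Ccnd2 stood at 11.9 and 47.6 CPM, while E2f1 and Cdkn1a stood lower (-1.08 and -0.93).

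The microRNA clusters of stem cells are described next, with rows chosen after their values were seen. Rows of microRNA genes count tags that map to the hairpin or to its primary transcript, and not the mature molecule. The sequences are printed because the clusters are best known by their seeds. The mature RefSeq sequences (GRCm38.p6) carry the seed, bases 2 to 8, in capitals. Entries of the miR-302 cluster lie on chromosome 3 and that of miR-290a on chromosome 7, all on the plus strand.
miR-302b-3p, chr3:127545275-127545297: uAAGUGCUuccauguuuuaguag
miR-302c-3p, chr3:127545406-127545427: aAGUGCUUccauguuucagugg
miR-302d-3p, chr3:127545665-127545687: uAAGUGCUuccauguuugagugu
miR-367-3p, chr3:127545779-127545800: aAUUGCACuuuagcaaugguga
miR-290a-3p, chr7:3218674-3218697: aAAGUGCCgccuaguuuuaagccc
The hexamer AAGUGC, known for its role in the stem cell cycle, begins at base 2 of miR-302b-3p, miR-302d-3p and miR-290a-3p and at base 1 of miR-302c-3p as annotated, so that its seed is shifted by 1 base. miR-367-3p shares the transcript and not the seed.

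The miR-302 cluster came on during the transition. Mir302b had no count in the naive libraries and 41, 91 and 35 counts (3.13, 7.71 and 3.27 CPM) in the formative ones, at least 43.4-fold higher against 3 counts over the group (adjusted p = 4.60e-08). Mir302c had 1 naive count in all and 5.96, 7.79 and 2.61 CPM in the formative libraries, a ratio of 154 (27.4 to 6124), and Mir302a, without a naive count, was at least 8.31-fold higher. All formative libraries lay above all naive ones in these rows. Mir290a went the other way, from 1.3, 0.673 and 1.06 to 0.153, 0.254 and 0 CPM (adjusted p = 0.0133), a call lost without formative library c (adjusted p = 0.0859) or naive library a (adjusted p = 0.0635). Of the RNA-binding genes, Elavl3 and Msi1 rose (2.42 and 1.20 log2). In all 2 of 10 tested rose, a share near the 21.9% of all tested genes.

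Few genes differed from the wild-type transition by the test of the difference itself. Of 10558 genes tested, the change in floxed cells minus that in wild-type cells was higher for 67 (0.635%) and lower for 58 (0.549%). Of the 2303 genes that rose in floxed cells and entered this test 23 differed upward and 7 downward, and of the 1143 that fell 10 differed upward and 25 downward. The naive wild-type mean held 2 libraries, which widens these errors. A gene that misses the threshold is not shown to change alike.

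Among genes with at least 5 CPM in a group and a symbol that is no predicted model, the 8 largest differences upward were of genes whose mean stood higher in naive wild-type than in naive floxed cells, while the formative means lay closer together. Ly6a, the stem cell antigen Sca-1, had means of 1.79 CPM (naive) and 1.25 CPM (formative floxed), against 43.7 and 0.571 CPM in wild type, a difference between the changes of 5.37 log2 (SE 0.57, adjusted p = 8.22e-07). Parm1, a mucin-like membrane protein, rose from 0.652, 2.4 and 1.06 to 7.56, 5.08 and 11.6 CPM in floxed libraries, against means of 24 and 4.72 CPM in wild type (4.77, adjusted p = 8.22e-07). Dcstamp, a fusion protein of osteoclasts, differed by 4.19, Apobec2, of the cytidine deaminase family, by 3.81, Oas1f by 3.63 and Lix1 by 3.40. Apobec2 stood at 5.04 and 6.32 CPM in floxed and 44 and 3.73 CPM in wild-type cells. Tmem64 differed by 2.87 and Dpys by 2.97, a call of Dpys lost without formative floxed library b (2.63, adjusted p = 0.0925).

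The downward differences were led by a gene of the primitive streak. Evx1, which fell in floxed cells, had means of 1.56 and 7.01 CPM in wild type, a difference of -4.69 log2 (SE 0.74, adjusted p = 9.58e-04), and Eomes, which also fell, had 6.63 and 20.9 CPM in wild type (-3.11, adjusted p = 1.39e-04). The means of both genes went in opposite directions in the lines. Gbp2b, an interferon-induced GTPase, stayed near 0 in floxed cells (0.028 and 0.0456 CPM) and stood at 0.0909 and 6.34 CPM in wild type (-4.36). Pnp2, a purine nucleoside phosphorylase with a close paralogue, fell from 30.9, 32.9 and 24.6 to 5.73, 5.93 and 7 CPM in floxed libraries (0.0325 and 0.446 CPM in wild type, -3.66). Chrna9 differed by -2.97 (its call was lost only with the groups of the contrast alone). Psors1c2 (-3.16) did not pass without naive wild-type library b (adjusted p = 0.0794) or naive floxed library a (adjusted p = 0.0506). Grm6 (-2.88) did not pass when 1 library was left out, for naive wild-type a or b, formative wild-type a or c, naive floxed b or c and formative floxed a or b (adjusted p = 0.0519 to 0.123). Lonrf3 (-2.77) did not pass without naive wild-type a or b, formative wild-type c, naive floxed b or c or formative floxed c (adjusted p = 0.0543 to 0.121). The count of genes with a difference depends on the libraries and the settings, from 23 to 133 higher and 13 to 138 lower.

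**Figure D5:**
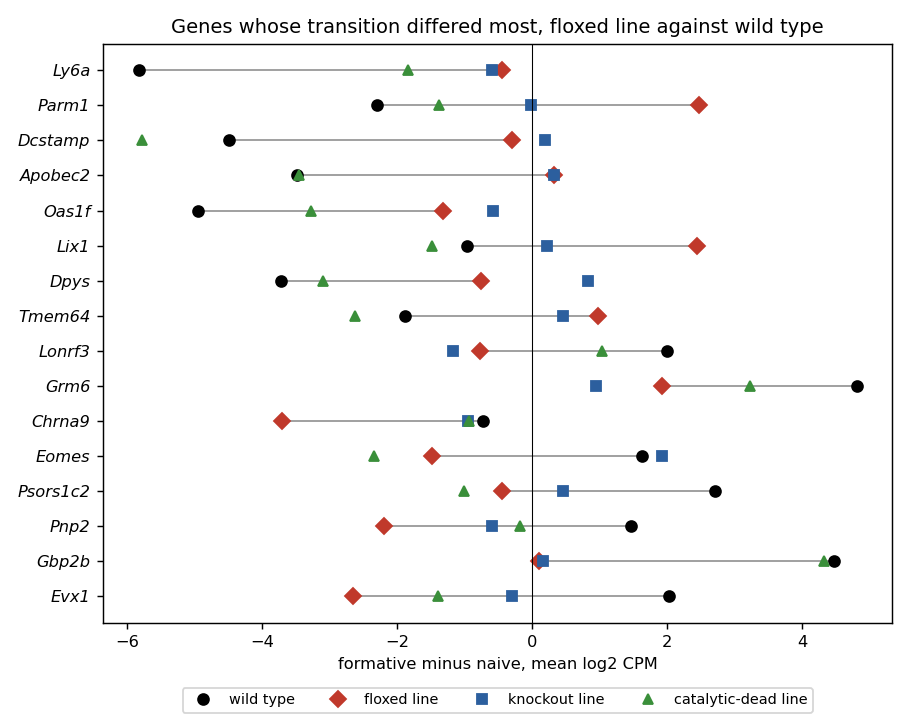
Log2 difference of formative minus naive means (x axis) for the 16 genes named in this comparison (y axis), with 1 symbol for each of the 4 lines and a grey line from wild type to floxed. Evx1 and Eomes lie below 0 in the floxed line and above 0 in the wild type, and Ly6a lies at -5.82 in the wild type and -0.46 in the floxed line.

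The transition of cells that lack MLL4 as well was compared with that of floxed cells by the same test. Of 10185 genes tested, the change in knockout minus that in floxed cells was higher for 499 (4.9%) and lower for 311 (3.05%). This comparison shares the floxed libraries with the one above, which rests on 2 naive wild-type libraries. Neither the lists of genes nor their lengths are therefore set against each other. Enox1 and Serpinb9b, which fell in floxed cells, stood at 0.92 and 5.4 CPM and at 0.863 and 4.99 CPM in the knockout line, differences of 6.25 and 6.03 log2. Spry4, a feedback inhibitor of ERK, was level in floxed cells (2.5 and 2.48 CPM) and stood at 0.216 and 20.5 CPM in knockout cells (5.63, SE 0.68, adjusted p = 3.53e-06). Spink1, a protease inhibitor, differed by 5.53 and Cav1, of caveolae, by 4.84. Rises of the floxed line that differed downward were those of Cpne8 (0, 0.288 and 0 to 6.64, 2.12 and 5.97 CPM in floxed libraries, 7.6 and 1.92 CPM in knockout, -5.95), Trim67 (0.705 and 0.865 CPM in knockout, -4.89) and Stmn4, a tubulin regulator (-4.68). Hhip, which binds Hedgehog, and Dkk1, which blocks Wnt receptors, did not pass in floxed cells (0.87 and 1.69 CPM, 0.362 and 0.335 CPM) and stood at 11.2 and 0.382 CPM and 14.4 and 0.527 CPM in knockout cells (-5.10 and -4.25).

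For the genes that rose in floxed cells the median difference was 1.73 log2 in that line, 1.44 in wild type, 1.20 in catalytic-dead and 1.12 in knockout cells. For those that fell it was -1.43, -1.03, -0.80 and -0.36. The genes were chosen in the floxed line, so its own value is raised by that choice, and the other 3 are a description without a test.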

How the data were processed

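RNA of 24 samples was measured by 3' tag sequencing. Per the labels' protocols, Trizol RNA (200 ng) went into QuantSeq 3' FWD libraries, read single-end for 50 bases. Per the submitters' processing notes, mm10, FastQC 0.11.8, MultiQC, cutadapt 2.5, STAR, featureCounts, Subread 1.6.4 and DESeq2 1.34.0 were used, with no roles given. No source states the strand setting, which makes overlapping, antisense and duplicated genes uncertain. Each 3' tag marks a transcript once, so CPM is not scaled by length. The table the authors deposited holds log2 CPM values averaged over the libraries of each of 8 groups, with 16617 genes. They were found to carry a prior count of 2, scaled by depth.

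From the 9 decimals of these means the whole counts of single libraries were solved, for 23 of 24 libraries. The naive wild-type column held 2, and 1 of 6919314 counts found in both the formative knockout and formative catalytic-dead columns was removed from the former. Libraries of a group are called a, b and c by falling depth and carry no replicate number. Counts are unknown for abundant genes and some scarcer ones, compared by means alone. A column name with CKO was read as MLL3KO_MLL4fl. Tested on simulated data (16617 genes, log2 SD 0.25), 23 library sizes and 279245 of 279251 counts came out right. The simulated floxed transition called 100 of 10520 genes, 3 of them unchanged. It changed 200 genes, all of low naive level, far fewer than were called in the data, so its rates need not hold there. It called 10.3% of genes changed 1.5-fold, 55.9% of those changed 2-fold and 91.9% of those changed 4-fold. The median sizes found were 0.59, 0.96 and 1.89 log2.

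The test was that of limma 3.58.1 (R 4.3.3), with 1 model of 8 groups, with weights per gene and group from a lowess trend of SD on count (span 0.3), a variance trend and Benjamini-Hochberg adjustment over all genes tested. Genes needed 0.981 CPM (10 counts at the median library) in at least 3 libraries, which 16539 passed, counting unrecovered values as passing. The prior count understates changes of scarce genes. Alternatives were the groups of the contrast alone, no weights, size factors, a filter 5 times higher or none, a prior count of 8 and leaving out each library. Coordinates are of GENCODE vM21 (GRCm38).

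Named genes are the 12 largest rises and 12 largest falls, the 8 largest differences of means each way among untested genes, up to 6 members of each of 34 lists with further members for their roles, and the 8 and 5 largest each way in the differences from wild type and knockout, all but the list members with at least 5 CPM in a group and a symbol that is no predicted model. Some genes that the rules name are not reported here, though counts include them. The comparison, the lists and the rules were chosen with earlier results of these data known. P-values set each difference against the spread between recovered libraries, which the model estimates over all 8 groups and not from the floxed libraries alone.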

Additional observations from a re-analysis of the deposited data

Results flagged for a closer look

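Differences between transitions were found by a test of the difference itself (limma, adjusted p under 0.05) for the genes below, given as the formative minus naive change of one line minus that of the other, in log2. Against the wild type, the floxed change was higher for Ly6a (5.37), Parm1 (4.77), Dcstamp (4.19), Apobec2 (3.81), Oas1f (3.63), Lix1 (3.40), Dpys (2.97) and Tmem64 (2.87). It was lower for Evx1 (-4.69), Gbp2b (-4.36), Pnp2 (-3.66), Psors1c2 (-3.16), Eomes (-3.11), Chrna9 (-2.97), Grm6 (-2.88) and Lonrf3 (-2.77). In all 67 genes were higher and 58 lower among 10558 tested, and these 16 are the 8 largest each way among those with at least 5 CPM in a group and a symbol that is no predicted model.

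The knockout change minus the floxed change was higher for Enox1 (6.25), Serpinb9b (6.03), Spry4 (5.63), Spink1 (5.53) and Cav1 (4.84). It was lower for Cpne8 (-5.95), Hhip (-5.10), Trim67 (-4.89), Stmn4 (-4.68) and Dkk1 (-4.25). Both comparisons use the floxed libraries, and each genotype is its own line, so genotype and line cannot be told apart.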

How the results depend on the processing

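In the floxed transition 2364 genes rose and 1163 fell. The rises went to 1572 with a filter 5 times higher, which tested 5729 genes, and lay between 1898 (without naive floxed library b, with 1817 shared) and 2182 when 1 library was left out. The falls lay between 956 and 1168. Fitted on the floxed groups alone 1887 rose and 891 fell, and with size factors 2051 and 1440. Differences from the wild type were less stable. The 67 higher genes became 23 with the contrast's own groups, 43 without weights, 133 with a prior count of 8 and 40 to 68 with 1 library left out (42 without naive wild-type a, 40 without formative wild-type a or c). The 58 lower genes became 13, and 138 with a prior count of 8, and 23 to 66 with 1 library left out (35 without naive wild-type a, 23 without naive wild-type b, 35 without formative wild-type a, 33 without formative floxed b, 38 without formative floxed c). At least 4-fold in place of 2-fold, 1040 genes were higher and 370 lower by means. Medians changed sign with size factors for respiratory chain subunits (0.07 to -0.042) and lysosome and autophagy genes (0.00 to -0.12). The causes were not tested. Of 204 named genes tested in the floxed transition, 25 lost a call and 8 gained one under at least 1 alternative, and none reversed. Of 16 genes named for a difference from the wild type 5 lost a call, and of 10 named for the knockout none did. List counts without naive floxed library b were chosen after seeing the data. No paired analysis was possible because the recovered libraries carry no replicate numbers. Abundant genes and some scarcer ones have no library values, so their spread is unknown.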
